A study of Mus musculus with 24 samples.

Results

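The Pf4, Ppbp and Cxcl cluster is a run of 6 genes for CXC chemokines on mouse chromosome 5, all on the plus strand: Cxcl5, Ppbp, Pf4 and Cxcl3 in a first block, and Cxcl1 and Cxcl2 in a second. The members were taken by position, as every called ATAC-seq peak over these genes (GENCODE vM21, mm10) or within 20 kb on either side. They were 6 of 21951 protein-coding genes in the annotation, 557 of 3430812 peaks in 24 lists, and 30 of 207525 elements, an element being a stretch covered by peaks that overlapped in both libraries of a population. With the flanks, the first block covered chr5:90739360-90809600 and the second chr5:90871241-90925938.

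CXC chemokines are small secreted proteins that direct leukocyte migration. Pf4 (CXCL4) and Ppbp, whose processed forms include NAP-2, are stored in the alpha granules of platelets and their mRNAs are textbook products of megakaryocytes. Cxcl1, Cxcl2, Cxcl3 and Cxcl5 attract neutrophils through the receptor Cxcr2, and their transcription in many cell types is induced by inflammatory signals through NF-kappaB.

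ATAC-seq, which reads where the Tn5 transposase can cut chromatin, was carried out on 12 mouse blood populations with 2 libraries each. The megakaryocytic populations were iMK (immature megakaryocytes) and CFUMK (colony forming unit megakaryocyte), and the erythroid ones CFUE (colony forming unit erythroid) and ERY (erythroblasts). MON (monocytes) and NEU (neutrophils) came from peripheral blood. The progenitors were MEP (megakaryocyte erythroid), GMP (granulocyte monocyte), CMP (common myeloid) and LSK (Lin-, Sca1+, cKit+), which, with the megakaryocytic and erythroid cells, came from the bone marrow of adult C57BL6 mice, the strain also used for MON and NEU. The other 2 groups were cell lines: G1E-ER4+E2, 1 clone of G1E cells whose GATA1 function is restored by an estradiol-dependent GATA1-estrogen receptor hybrid, treated with estradiol, and G1E, erythroid-committed cells that lack GATA1. The study describes its replicates either as cells from separate groups of mice or as separate aliquots of the same group, and the sources do not say which applies to each population here, so p-values measure the spread between libraries, which may be technical.

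The lists held 52720 to 230877 peaks of at most 150 bp. Steps in the deposited scores placed the relative depth of the primary libraries between 40.2% and 100% of the deepest, and that of the cell lines between 22.3% and 27.0%. A peak number is therefore given as called and per 100000 peaks of its list, and a peak's rank is given as its percentile, the percent of peaks in the same list with a score at or below its own. A percentile depends on the length of the list and the other peaks in it, so a difference in percentile is a difference in rank, and the part of list length in it was not tested. A site open in fewer cells and a site cut less often in each cell cannot be told apart in these data.

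The labelled identities were compared with the promoters of marker genes, with a promoter called if any peak came within 500 bp of one of the gene's transcript starts. Of 10 erythroid markers, 10 were called in each of the 4 CFUE and ERY lists, 8 in each iMK list and 9 in each CFUMK and MEP list. In MON and NEU 1 or 2 were called per list. Of 12 megakaryocyte markers, 4 and 7 were called in iMK, 8 and 9 in CFUMK, 4 to 6 in CFUE and ERY, and 11 in both CMP lists. In iMK the promoters of Gp1ba, Gp6, Treml1 and Tubb1 were called in neither list. Granulocyte markers were called at 11 of 12 in each iMK and CFUMK list and at 1 or 2 in each CFUE and ERY list, and monocyte markers at 9 or 10 of 10 against 0 or 1. All 6 B cell markers were called in both NEU lists and 1 to 4 in every other list. Whether such other cells had a part in the values below was not tested.

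Motif letters were compared at the starts of 5 members, all but Cxcl5, whose promoter was not analysed here. The sequences below are RefSeq promoters of GRCm38.p6, plus strand, printed to the base before the RefSeq start in Ppbp, Pf4 and Cxcl3 and to the base before the GENCODE gene start in Cxcl1 and Cxcl2: Ppbp chr5:90768268-90768517, Pf4 chr5:90772185-90772434, Cxcl3 chr5:90785851-90786100, Cxcl1 chr5:90890995-90891240 and Cxcl2 chr5:90903649-90903870. They are shown because elements E4, E9, E21 and E29, over or beside the starts of Pf4, Cxcl3, Cxcl1 and Cxcl2, overlap them. Capitals mark the ETS letters GGAAGT in reverse (ACTTCC on this strand) in Ppbp and Pf4, and the match to the NF-kappaB motif in Cxcl3, Cxcl1 and Cxcl2.
Ppbp: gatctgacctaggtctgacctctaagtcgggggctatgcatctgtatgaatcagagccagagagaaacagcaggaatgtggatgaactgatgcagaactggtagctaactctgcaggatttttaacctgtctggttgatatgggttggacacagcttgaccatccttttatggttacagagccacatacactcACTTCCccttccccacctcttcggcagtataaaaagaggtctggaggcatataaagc
Pf4: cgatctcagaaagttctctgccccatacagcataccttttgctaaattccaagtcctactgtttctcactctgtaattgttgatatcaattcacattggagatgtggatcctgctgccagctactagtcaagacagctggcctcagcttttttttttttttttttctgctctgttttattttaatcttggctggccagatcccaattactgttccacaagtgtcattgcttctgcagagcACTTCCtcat
Cxcl3: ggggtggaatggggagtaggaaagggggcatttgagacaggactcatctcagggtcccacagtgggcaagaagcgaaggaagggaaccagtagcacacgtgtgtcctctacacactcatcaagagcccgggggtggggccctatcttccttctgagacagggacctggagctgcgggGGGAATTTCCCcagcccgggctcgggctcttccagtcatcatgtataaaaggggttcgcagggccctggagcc
Cxcl1: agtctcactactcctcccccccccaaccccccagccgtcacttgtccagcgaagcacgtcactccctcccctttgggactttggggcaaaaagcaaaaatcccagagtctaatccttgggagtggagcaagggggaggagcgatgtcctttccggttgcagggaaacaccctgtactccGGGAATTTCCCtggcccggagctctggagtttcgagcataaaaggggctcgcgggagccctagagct
Cxcl2: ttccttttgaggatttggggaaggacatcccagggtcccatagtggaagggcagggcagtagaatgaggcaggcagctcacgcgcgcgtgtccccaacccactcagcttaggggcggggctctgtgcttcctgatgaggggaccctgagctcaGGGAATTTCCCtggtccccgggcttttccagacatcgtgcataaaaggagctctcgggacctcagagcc
The NF-kappaB match was the same stretch, GGGAATTTCCC, in the promoters of the 3 neutrophil attractants analysed. It began 73 bases before the RefSeq start of Cxcl3, 71 before that of Cxcl1 and 97 before that of Cxcl2. The stretch holds a match on each strand, offset by 1 base. A match to this motif is held by 7.25% of 32851 promoters of 250 bases. Ppbp and Pf4 held no NF-kappaB match in this window. Their ETS letters began 57 bases before the start of Ppbp and 10 before that of Pf4, and 19.7% of promoters hold these letters on either strand. Neither Ppbp nor Pf4 held the GATA letters searched (AGATAA or AGATAG, and TGATAA or TGATAG, both strands) in this window. Each element was searched in 200 bases around the midpoint of its highest ranked peak. For the Pf4 start element E4 these bases reach past the start and held 2 GATA matches. They also held 1 NF-kappaB match, the only 1 among the windows of the 30 elements. The windows of E9 and E29 did not reach the NF-kappaB matches printed for Cxcl3 and Cxcl2. A match is a description of letters and not a bound site.

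Away from the starts, 4 intergenic elements that the comparisons below return to are printed as 200 bases of mm10, plus strand. E1 (chr5:90742150-90742349) lies 17.16 kb before Cxcl5, E7 (chr5:90775723-90775922) lies 3.38 kb after the start of Pf4, E19 (chr5:90881705-90881904) lies 9.36 kb before Cxcl1, and E30 (chr5:90909073-90909272) lies 5.27 kb after the start of Cxcl2. Capitals mark GATA and ETS letters in E1 and E7, the CEBP letters TTGCNNAA in E19 and a CTCF match in E30.
E1: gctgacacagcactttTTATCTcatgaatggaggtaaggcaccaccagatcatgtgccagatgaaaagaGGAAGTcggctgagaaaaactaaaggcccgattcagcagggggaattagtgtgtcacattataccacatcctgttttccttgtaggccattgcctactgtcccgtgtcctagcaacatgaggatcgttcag
E7: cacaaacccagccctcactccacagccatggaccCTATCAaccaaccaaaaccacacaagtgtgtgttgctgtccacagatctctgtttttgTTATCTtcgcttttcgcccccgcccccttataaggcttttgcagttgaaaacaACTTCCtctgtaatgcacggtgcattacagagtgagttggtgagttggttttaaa
E19: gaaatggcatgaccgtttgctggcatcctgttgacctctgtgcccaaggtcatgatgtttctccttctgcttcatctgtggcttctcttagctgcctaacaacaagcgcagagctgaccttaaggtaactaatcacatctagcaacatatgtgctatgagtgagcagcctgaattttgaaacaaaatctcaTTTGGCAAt
E30: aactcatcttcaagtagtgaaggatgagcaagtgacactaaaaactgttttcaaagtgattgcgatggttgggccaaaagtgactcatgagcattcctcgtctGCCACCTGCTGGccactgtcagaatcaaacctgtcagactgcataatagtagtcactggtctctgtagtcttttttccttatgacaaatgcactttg
E7 held 2 GATA matches and 1 ETS match, and E1 held 1 of each. The CEBP letters were held by E11, E18, E19 and E23, which is 4 of 30 cluster elements, against 11.3% of all elements. E30 held the only CTCF match of the cluster, a motif held by 3.21% of all elements. Over 30-base words, 28 of 35 cluster regions (elements and promoters) had no second copy in the genome. The least unique were E13 and E14, at 28.5% and 32.9% of their words, with 98 words shared between them. E19 was unique in 74.2% of its words. The Cxcl3 start element E9 was unique in 82.9%, with 77 words shared with the Cxcl2 start element E29. Reads from shared words may have been placed at any copy, and E13 and E14 are counted below as separate elements.

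The megakaryocytic and progenitor lists were rich in cluster peaks and the erythroid lists nearly empty. The cluster held 32 and 30 peaks in iMK, 38 and 35 in CFUMK, 6 and 2 in CFUE, 2 and 3 in ERY, and 33 and 31 in MEP. It held 19 and 20 in MON, 19 and 21 in NEU, 31 and 28 in GMP, 40 and 46 in CMP, and 39 and 32 in LSK. The cell lines, at the lowest depth, held 13 and 9 in G1E-ER4+E2 and 12 and 16 in G1E. CFUE and ERY, the populations committed to red cells, lay below every other list, and no other list had fewer than 9 cluster peaks.

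**Figure D1:**
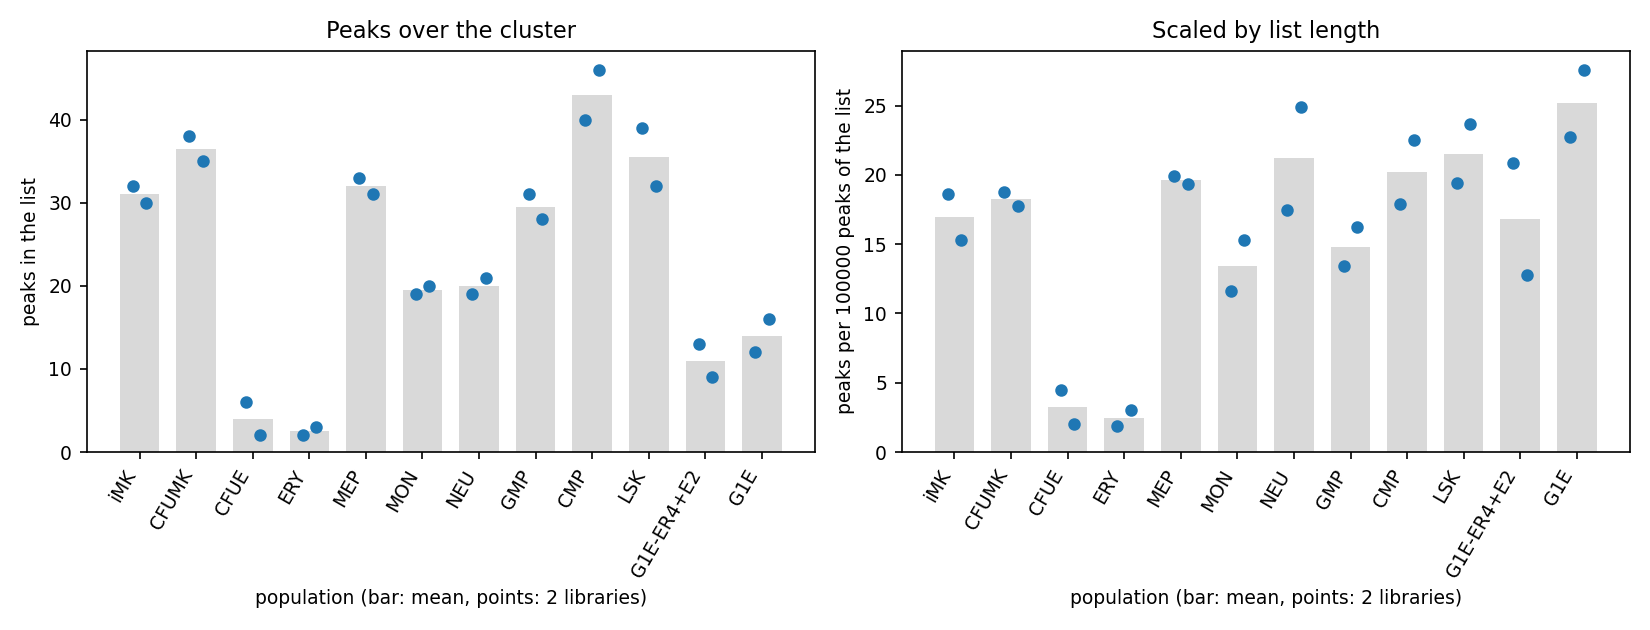
Called peaks in the cluster by population. The left panel shows the peaks as called and the right panel the peaks per 100000, with 1 point per library and a bar for the mean of both. In both panels the 4 CFUE and ERY libraries lie below all other libraries, with scaled means of 3.25 and 2.46, while the other 10 populations have scaled means between 13.5 and 25.2.

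Scaled to list length, the cluster took 16.9 ± 2.34 peaks per 100000 in iMK, 18.3 ± 0.709 in CFUMK, 3.25 ± 1.75 in CFUE and 2.46 ± 0.857 in ERY (SD, n = 2 each). MEP had 19.6 ± 0.411, MON 13.5 ± 2.63, NEU 21.2 ± 5.24, GMP 14.8 ± 1.98, CMP 20.2 ± 3.28 and LSK 21.5 ± 2.99 (SD, n = 2 each). From high to low the order of the primary means was LSK, NEU, CMP, MEP, CFUMK, iMK, GMP, MON, CFUE and ERY. Neighbours in this order overlapped in their libraries except MEP with CFUMK and MON with CFUE. The cell lines had 16.8 ± 5.68 in G1E-ER4+E2 and 25.2 ± 3.41 in G1E (SD, n = 2 each).

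The design also set 6 multilineage and megakaryocytic populations (LSK, CMP, GMP, MEP, CFUMK, iMK) against 4 erythroid and innate ones (CFUE, ERY, MON, NEU). Their means were 18.6 ± 2.43 (SD, n = 6) and 10.1 ± 8.94 peaks per 100000 (SD, n = 4), a difference of 8.47 with an exact two-sided permutation p of 0.0857, where 0.00952 is the smallest this design allows. The 4 populations did not lie together: MON (13.5) and NEU (21.2) lay beside the 6, whose means ran from 14.8 to 21.5, and CFUE and ERY lay below them. The difference passed the threshold without NEU replicate 2 (9.40, exact p = 0.0286), and the range over all alternatives was 0.0190 to 0.152.

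**Figure D2:**
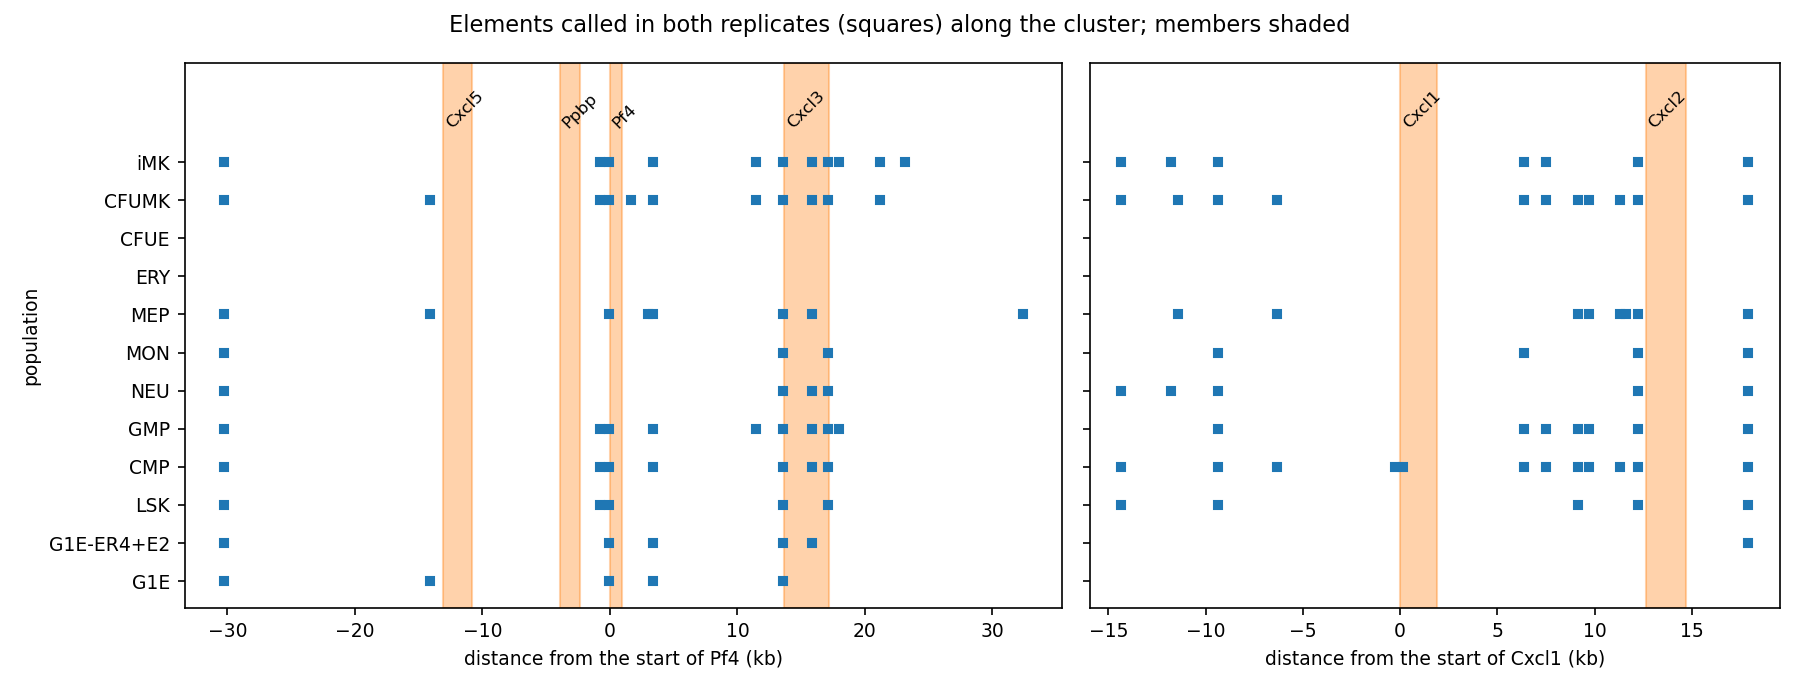
Elements called in both libraries of a population (squares, at their centres) against distance in kb from the start of Pf4 (left) and of Cxcl1 (right), 1 row per population, with the 6 genes shaded. The CFUE and ERY rows hold 0 squares, and the right panel holds 1 square for G1E-ER4+E2 and 0 for G1E.

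In the cell lines nearly all called peaks lay in the first block, which holds both platelet chemokines. The first block held 11 and 7 peaks in G1E-ER4+E2 and 12 and 15 in G1E, while the second held 2 and 2 peaks in G1E-ER4+E2 and 0 and 1 in G1E. In the megakaryocytic lists the blocks were more even, with 15 and 14 peaks in iMK and 17 and 16 in CFUMK for the first block, and 17 and 16 in iMK and 21 and 19 in CFUMK for the second. Both blocks were read from the same 4 cell line libraries. Depth was lowest in these libraries, and its part in the near absence of second block peaks was not tested.

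For the megakaryocytic against the erythroid branch, all 6 members had more peaks in iMK and CFUMK. Cxcl2 (ENSMUSG00000058427.10, chr5:90903871-90905938) had 12 and 11 peaks in iMK and 17 and 15 in CFUMK, against 1 and 0 in CFUE and 0 and 1 in ERY. Its mean was 3.01 in the megakaryocytic and 0.46 in the erythroid populations on the log2 scale of peaks per 100000 with 1 added, which understates changes at low numbers, a log2 difference of 2.56 ± 0.28 (SE, limma adjusted p = 3.68e-08). The groups did not overlap in any library.

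Cxcl1 (ENSMUSG00000029380.11, chr5:90891241-90893115) had 17 and 16 peaks in iMK and 21 and 19 in CFUMK, against 1 and 0 in CFUE and 0 and 2 in ERY, a log2 difference of 2.79 ± 0.30 (SE, limma adjusted p = 7.78e-08). Pf4 (ENSMUSG00000029373.7, chr5:90772435-90773383) had 11 and 11 peaks in iMK and 15 and 14 in CFUMK, against 4 and 2 in CFUE and 2 and 0 in ERY, a log2 difference of 1.65 ± 0.25 (SE, limma adjusted p = 9.23e-06). In both genes each megakaryocytic library lay above each erythroid one. Ppbp (ENSMUSG00000029372.7, chr5:90768518-90770063) had 10 and 10 peaks in iMK and 15 and 14 in CFUMK, against the same 4 and 2 in CFUE and 2 and 0 in ERY as Pf4, a log2 difference of 1.59 ± 0.26 (SE, limma adjusted p = 1.80e-05).

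Cxcl3 (ENSMUSG00000029379.10, chr5:90786103-90789600) had 13 and 13 peaks in iMK and 15 and 14 in CFUMK, against 3 and 2 in CFUE and 2 and 0 in ERY, a log2 difference of 1.83 ± 0.28 (SE, limma adjusted p = 1.13e-05). Cxcl5 (ENSMUSG00000029371.7, chr5:90759360-90761624), at the outer end of the first block, had 5 and 4 peaks in iMK and 9 and 7 in CFUMK, against 5 and 1 in CFUE and 1 and 1 in ERY. It was the member whose libraries overlapped, and its log2 difference was 0.75 ± 0.26 (SE, limma adjusted p = 0.0184). The Cxcl5 call was lost without CFUE replicate 2 (0.44, limma adjusted p = 0.181), CFUMK replicate 1 (0.68, 0.0669) or iMK replicate 1 (0.66, 0.0716), and with only the compared groups in the fit (0.0537), and its adjusted p ran from 1.74e-13 to 0.181 over 18 alternatives. The other 5 members kept the call in all 19 alternatives.

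The 6 higher calls stood beside 16.3% of 17047 tested genes called higher. The gene windows overlap, so members of a block share most of their peaks and the 6 calls are not independent. List length moved the whole table here: the median log2 difference over all genes was -0.30 scaled and 0.42 unscaled, and 30.6% of calls were higher with scaling, 93.7% without. Relative to the scaled median, the members stood at 1.05 (Cxcl5) to 3.09 (Cxcl1), and unscaled all 6 were again called higher. The granulocyte and monocyte marker promoters moved the same way, as given above.

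**Figure D3:**
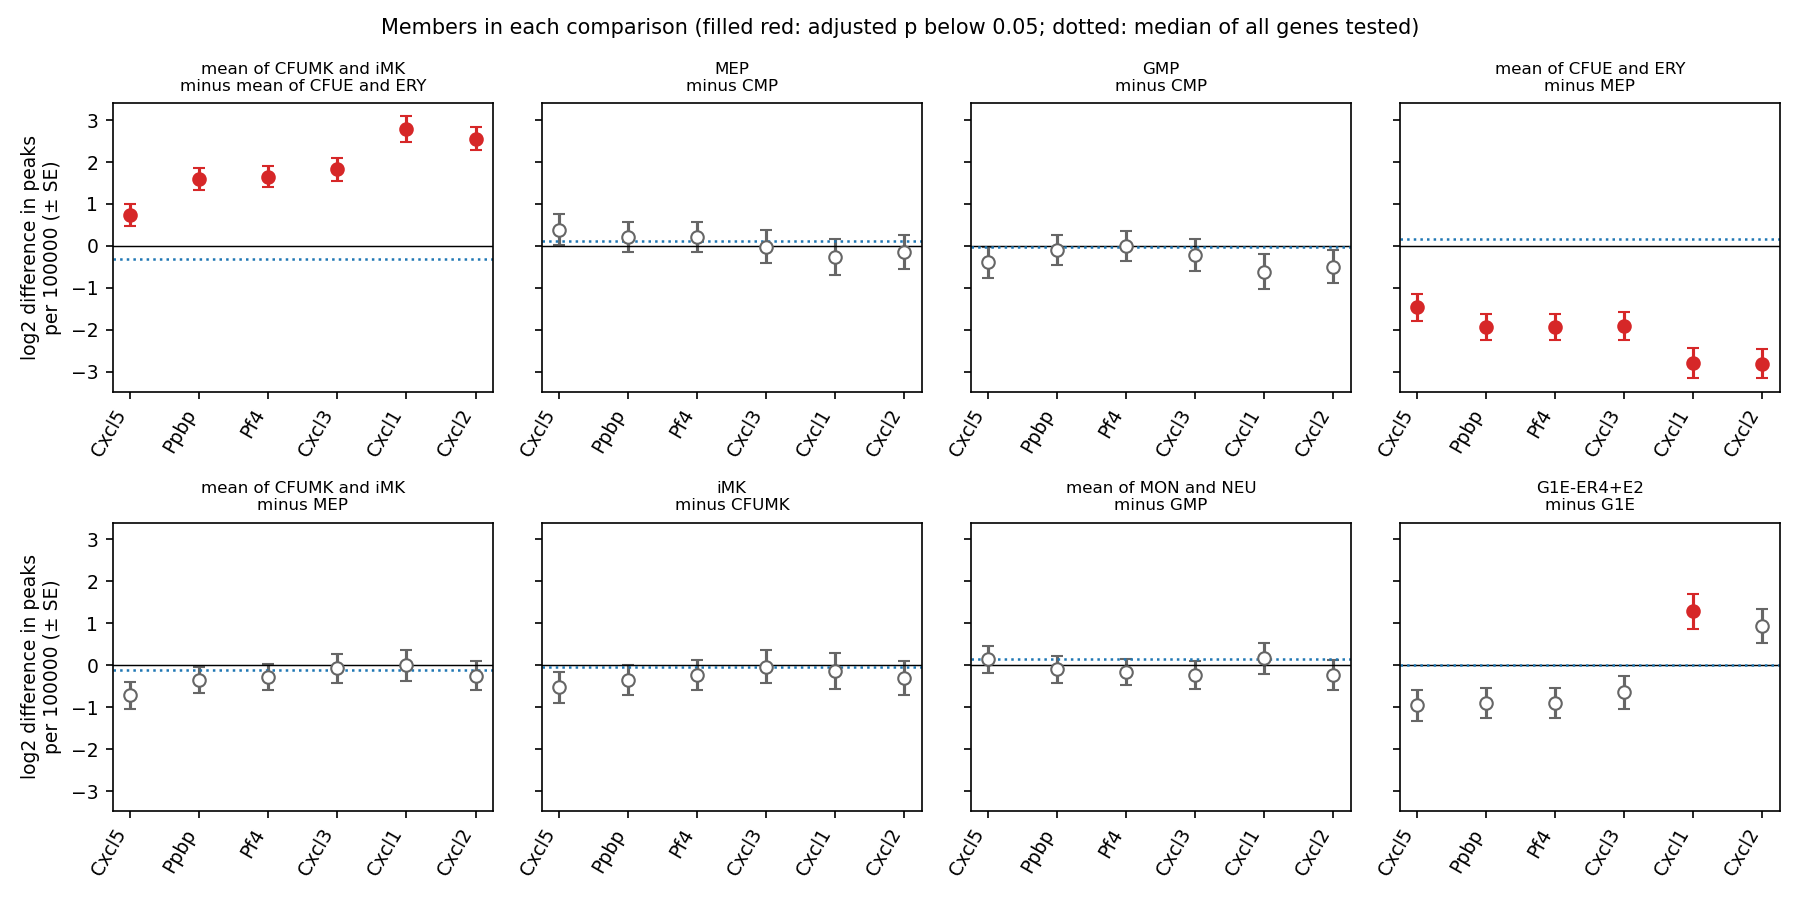
Log2 differences in peaks per 100000 for the 6 members in the 8 comparisons, 1 panel each, with standard errors, filled red points where the limma adjusted p was below 0.05, and the median of all genes dotted. All 6 are filled above 0 for CFUMK and iMK minus CFUE and ERY and below 0 for CFUE and ERY minus MEP, and elsewhere Cxcl1 in G1E-ER4+E2 minus G1E is the 1 filled point.

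At single elements, the same comparison gave 15 of 30 whose percentiles were higher in all 4 megakaryocytic lists than in all 4 erythroid ones, with an element not called set to 0, against 29.3% of all elements, and 0 that were lower, against 4.67%. The Cxcl2 start element E29 (chr5:90902923-90904038), which covers the 5' UTR and coding sequence, was at percentiles of 96.9 and 97.7 in iMK and 86.8 and 83.7 in CFUMK and was called in none of the CFUE and ERY lists. The Pf4 start element E4 (chr5:90771975-90772718), which likewise reaches into exon and coding sequence, was at 49.9 and 66.5 in iMK and 77.6 and 71.4 in CFUMK, and was called in none of the CFUE and ERY lists, although a peak at a percentile of 12.8 lay near the Pf4 start in CFUE replicate 1. The Cxcl3 start element E9 (chr5:90785585-90786396) was at 78.0 and 73.4 in iMK and 75.7 and 76.6 in CFUMK, against 19.4 in CFUE replicate 2 and 1.28 in ERY replicate 1. It was the start element called most widely, and its erythroid calls were among the lowest scored peaks of their lists.

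The starts of the other members were rarely called. At Ppbp, the lone call in 24 lists was in NEU replicate 1, at a percentile of 13.6. At Cxcl5, calls were limited to both MON lists, at 13.4 and 21.9, and MEP replicate 2, at 46.5. At Cxcl1, called in CMP and MEP lists as E21 before the start and E22 over the 5' UTR and coding sequence, the highest values were 41.3 and 35.4 in CMP and 27.4 in MEP replicate 1. Promoter calls over all genes ranged from 42.4% to 68.8% of 21924 genes per list. Ppbp, a platelet product, thus had no called start in any iMK or CFUMK list. Transcription was not measured in these libraries.

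**Figure D4:**
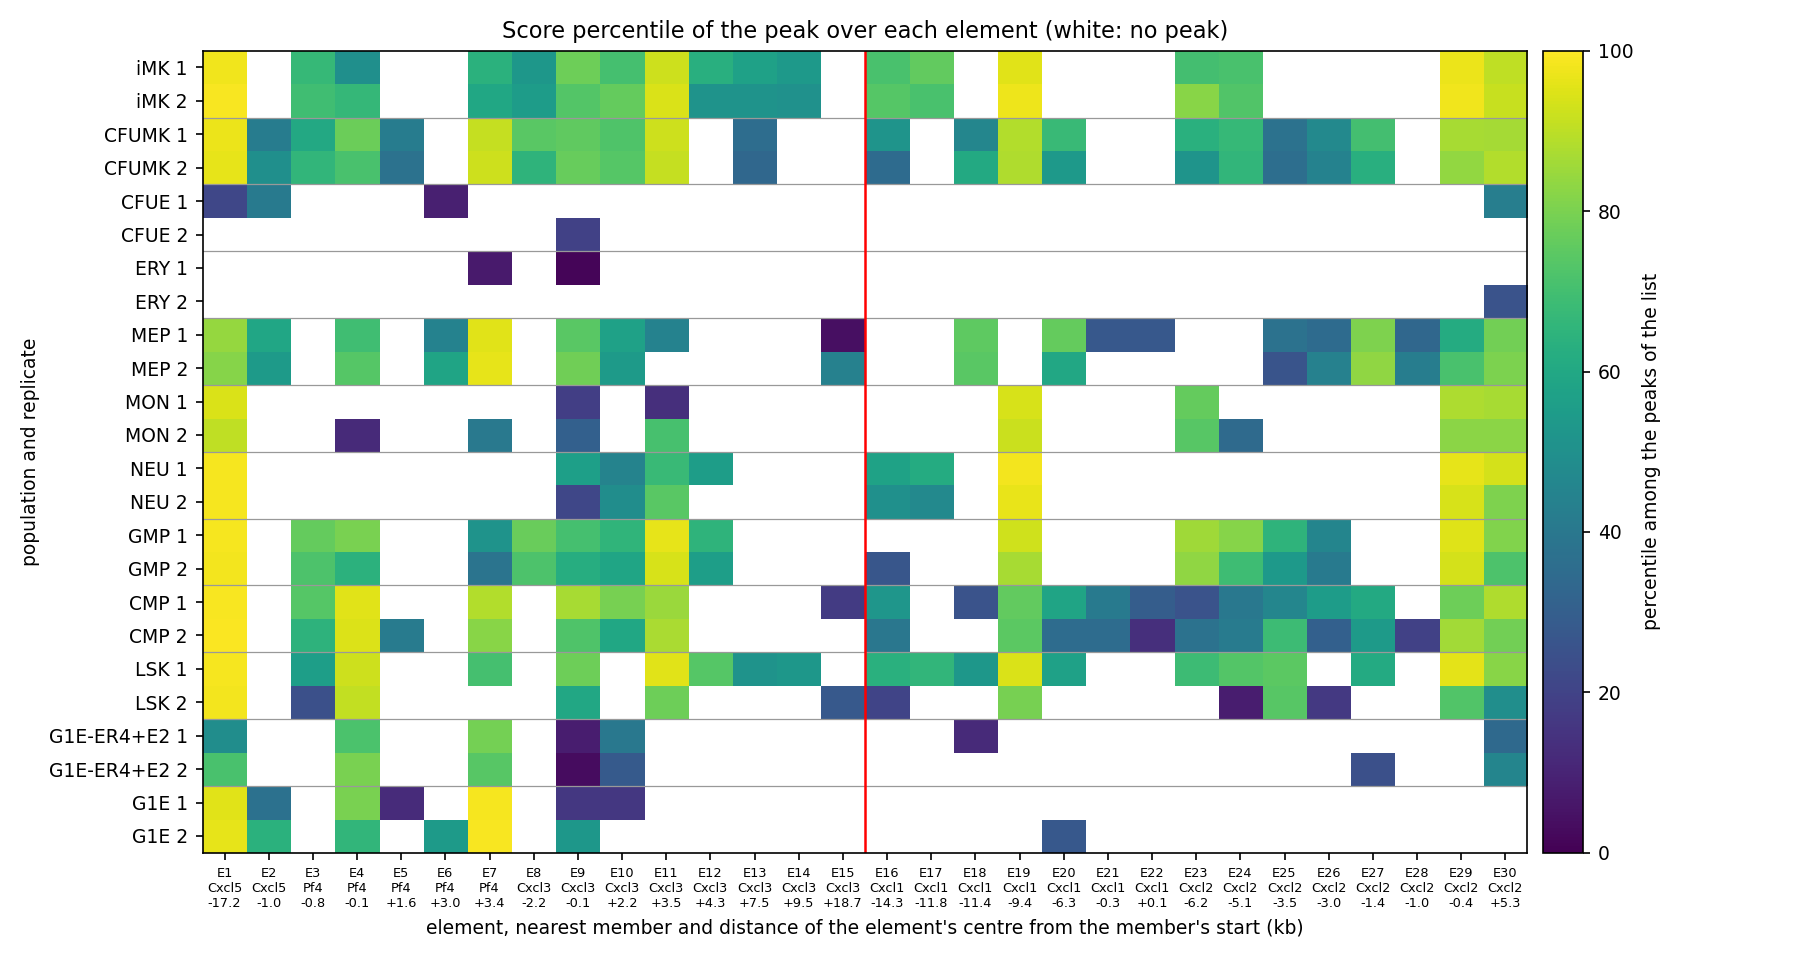
Percentile of each of the 30 elements in each of the 24 libraries, 1 row per library, with blank cells where no peak was called and yellow for the highest. The red line parts the blocks. The CFUE and ERY rows are almost blank, E1 and E30 are filled in most rows, and E7 is highest in MEP, CFUMK and G1E while E19 is blank in MEP and both cell lines.

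The erythroid populations also held fewer cluster peaks than MEP, the progenitor placed before them. All 6 members were lower in CFUE and ERY than in MEP, against 8.37% of genes called lower. MEP held 14 and 13 peaks at Pf4 and 14 and 14 at Cxcl2. The log2 difference, CFUE and ERY minus MEP, was -1.94 ± 0.31 for Pf4 (SE, limma adjusted p = 6.44e-05) and -2.81 ± 0.35 for Cxcl2 (1.07e-06), with Cxcl5 at -1.47, Ppbp at -1.94, Cxcl3 at -1.91 and Cxcl1 at -2.79. These 6 calls held in every alternative in which the member was tested, while the median over all genes was 0.18 scaled and -0.34 unscaled. This comparison shares the erythroid libraries with the one before, so the pair are not separate evidence.

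Of the elements, 16 of 30 were lower in all 4 erythroid lists than in both MEP lists, against 26.3% of all elements, and 0 were higher, against 5.22%. E7 was at 95.4 and 96.5 in MEP and was called in ERY replicate 1 alone of the 4 erythroid lists, at 7.18. E1 was at 84.2 and 81.9 in MEP and in CFUE replicate 1 alone, at 21.2. Not one of the 30 elements was called in both libraries of CFUE or of ERY, whereas 19.7% of all elements were in CFUE and 20.01% in ERY. In MEP, 16 of 30 were, against 36.6% of all elements, in iMK 18 against 47.1%, and in CFUMK 22 against 59.5%.

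On the megakaryocytic side, no member passed the test for iMK and CFUMK against MEP, where 6.44% of genes did. On simulated data this comparison found 54% of 4-fold rises and 2.04% of 2-fold rises. It found 29.8% of 4-fold falls and 0% of 2-fold falls, so a missing call does not show equality. Pf4 differed by -0.29 ± 0.31 and Cxcl2 by -0.25 ± 0.35 on the log2 scale (SE), and Cxcl5, at -0.72 ± 0.32, was the 1 member with an unadjusted p below 0.05. By percentile rank, 12 of 30 were higher in all 4 megakaryocytic lists than in both MEP lists, against 23.8% of all elements, and 7 were lower, against 13.7%. The higher ones included E19, at 95.6 and 97.3 in iMK and 88.5 and 88.1 in CFUMK and not called in MEP. E7 was among the lower, at 64.0 and 59.4 in iMK and 91.4 and 92.3 in CFUMK, against the 95.4 and 96.5 of MEP. These values share the MEP libraries with the erythroid comparison.

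**Figure D5:**
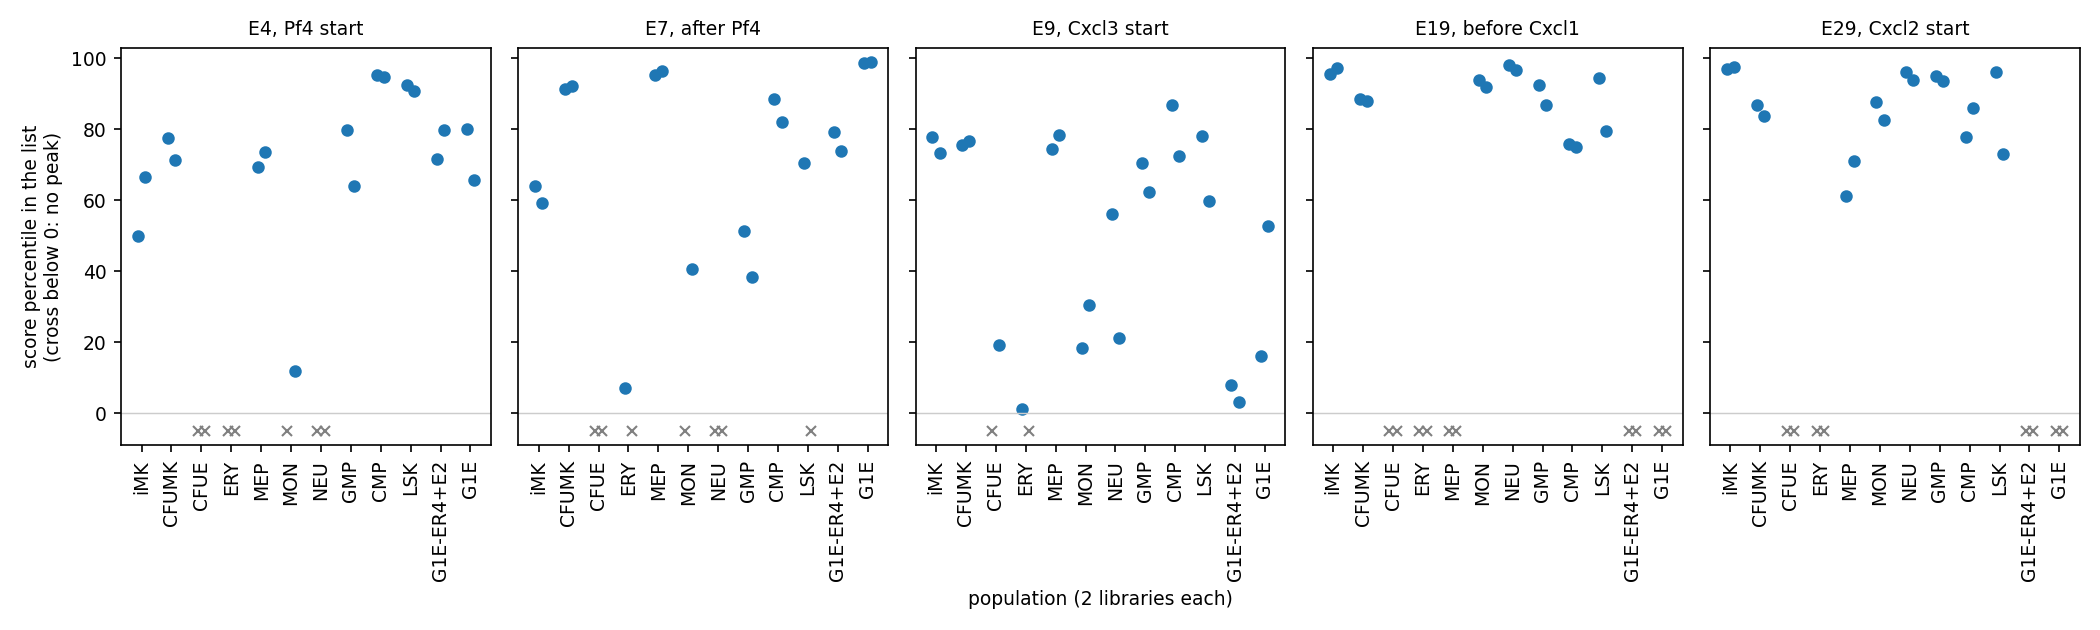
Percentiles of chosen elements by population, 1 point per library, with a cross below 0 where no peak was called. E4, E9 and E29 are the start elements of Pf4, Cxcl3 and Cxcl2. E7 is high in MEP, CFUMK and both cell lines and lower in iMK, and E19 is high in iMK, MON, NEU and GMP and not called in CFUE, ERY, MEP and both cell lines.

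Between iMK and CFUMK, successive stages of the megakaryocytic branch, no member differed by the test, where 0.493% of genes did, and no member had an unadjusted p below 0.05. Pf4 differed by -0.24 ± 0.36 and Cxcl2 by -0.31 ± 0.40 (log2, SE). Within the cluster 13 of 30 elements were higher in both iMK lists than in both CFUMK lists, against 21.8% of all elements, and 10 were lower, against 33.5%. E2, E5, E18, E20, E25, E26 and E27 were called in both CFUMK lists and in neither iMK list. This pattern was chosen after the values were seen, and its share over all elements was not counted.

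MEP and CMP, which share no library with iMK or CFUMK, were compared in the same way. MEP minus CMP called no member (2.12% of genes called, and no member with an unadjusted p below 0.05), with log2 differences of 0.21 ± 0.36 for Pf4 and -0.14 ± 0.40 for Cxcl2 (SE). In elements, 7 of 30 were higher in both MEP lists than in both CMP lists, against 15.3% of all elements, and 12 were lower, against 35.8%, the second near the share over all elements. E7 was higher, at 95.4 and 96.5 in MEP against 88.6 and 82.2 in CMP. E4 at the start of Pf4 was lower, at 69.5 and 73.6 in MEP against 95.3 and 94.8 in CMP, and E19 was absent in MEP and at 75.8 and 75.0 in CMP.

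Of the 7 elements higher in MEP than CMP, 5 (E2, E7, E18, E20 and E27) were lower in iMK than CFUMK. None was higher in iMK, where 4.76% of all elements higher in MEP were. These 5 were 71.4% of the 7 and 50% of the 10 lower in iMK, where over all elements the same overlap took 59.3% and 27.1%. Of the 12 elements lower in MEP than CMP, 8 (E1, E3, E11, E16, E19, E23, E24 and E29) were higher in iMK than CFUMK, which is 66.7% of the 12 and 61.5% of the 13, against 26.0% and 42.6% over all elements. The remaining pairing, lower in both, held E4 and E25, which is 16.7% of the 12 and 20% of the 10. Over all elements it took 36.7% and 39.2%. Over all elements the first part of this division was present, as 59.3% of those higher in MEP were lower in iMK. In the second part, more of the elements lower in MEP were lower in iMK (36.7%) than higher (26.0%), unlike in the cluster. No test of the cluster against all elements was run.

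GATA letters were counted along this division. They were held by 9 of 30 cluster elements, against 32.7% of all elements: E1, E2, E4, E6, E7, E15, E18, E20 and E27. Of the 7 elements higher in MEP than CMP, 6 held them, against 63.5% of the 31755 such elements in the genome, and of the 12 lower, 2 did (E1 and E4), against 26.8%. Of the 10 lower in iMK than CFUMK, 6 held them, against 40.1%, and of the 13 higher, 1 did (E1), against 21.9%. In each of these 4 sets the share in the cluster lay on the same side of 32.7% as the share in the genome. The sets share many elements, as given above, so these are not 4 separate results. AP-1 letters (TGANTCA) were held by 7 of 30, against 8.68% of all elements, and ETS letters by 10 of 30, against 26.9%.

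For the granulocyte-monocyte branch, GMP minus CMP called no member (0.0176% of genes called, and no member with an unadjusted p below 0.05), with log2 differences of -0.01 ± 0.36 for Pf4 and -0.49 ± 0.40 for Cxcl2 (SE). Of the elements, 7 of 30 were higher in both GMP lists, against 25.1% of all elements, and 9 lower, against 23.2%, both near the share over all elements. E19 was higher, at 92.7 and 86.9 in GMP against 75.8 and 75.0 in CMP, as was E23, between Cxcl1 and Cxcl2, at 85.8 and 83.3 in GMP against 25.5 and 37.6 in CMP. E7 was lower, at 51.5 and 38.4 in GMP against 88.6 and 82.2 in CMP, and E4 was lower, at 79.8 and 64.1 against 95.3 and 94.8. CEBP letters were held by 3 of the 7 higher (E11, E19 and E23), against 21.5% of all elements higher in GMP, and by 0 of the 9 lower, against 6.88%. GATA letters were held by 0 of the 7 higher and 5 of the 9 lower, against 20.9% and 40.9%.

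In MON and NEU against GMP, no member passed the test although 17.3% of genes did, and no member had an unadjusted p below 0.05. Pf4 had 5 and 10 peaks in MON and 9 and 6 in NEU, against 15 and 13 in GMP, a scaled log2 difference of -0.16 ± 0.31 (SE). Cxcl2 had 9 and 6 peaks in MON and 5 and 6 in NEU, against 14 and 12 in GMP, at -0.23 ± 0.35 (SE). Without scaling, where the median over all genes was -0.51 and not 0.16, Pf4, Cxcl3 and Cxcl2 were called lower, and 0.809% of all calls were higher, against 51.4% with scaling.

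By percentile, 0 of 30 elements were higher in all 4 MON and NEU lists than in both GMP lists, against 2.2% of all elements, and 11 were lower, against 36.2%. The lower ones included E4, called in MON replicate 2 alone, at 11.9, and in neither NEU list, against 79.8 and 64.1 in GMP. Cxcl2 start element E29 stayed high, at 87.6 and 82.6 in MON and 96.3 and 94.0 in NEU, against 95.1 and 93.7 in GMP. E19 did too, at 93.9 and 92.0 in MON and 98.1 and 96.7 in NEU. In NEU, the cells that these attractants act on, the highest percentiles of the cluster were at E1 (98.6 in both lists), E19 and E29, while E4 at the start of Pf4 and E7 after it were not called. Of the 30 elements, 7 were called in both MON lists and 9 in both NEU lists, against 25.2% and 20.9% of all elements, and the B cell marker promoters called in NEU are given above.

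LSK, which holds the stem cells, had peaks at the starts of Pf4, Cxcl3 and Cxcl2. E4 was at 92.5 and 90.8 in LSK, E29 at 96.1 and 73.0, and E19 at 94.4 and 79.5, while E7 was called in LSK replicate 1 alone, at 70.4. Called in both lists were 10 of 30 elements in LSK, against 33.3% of all elements, 16 in GMP, against 54.9%, and 19 in CMP, against 52.0%. No comparison against LSK was tested.

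In the cell lines, percentiles at E1 and E7 were lower in G1E-ER4+E2 than in G1E. The lines differ together in clone, estradiol treatment, GATA1 function and list length, and these cannot be told apart here. E7 was at 79.2 and 74.1 in G1E-ER4+E2, against 98.7 and 99.1 in G1E, and E1 was at 49.1 and 71.2, against 95.4 and 96.2. Elements lower in both G1E-ER4+E2 lists numbered 4 of 30 (E1, E2, E7 and E9), against 5.01% of all elements, and those higher 2 (E10 and E30), against 11.2%. GATA letters were held by 3 of the 4 lower, against 65.6% of all elements lower in G1E-ER4+E2. Pf4 start element E4 overlapped, at 71.6 and 79.7 in G1E-ER4+E2 against 80.1 and 65.9 in G1E. Of the 30, 6 were called in both G1E-ER4+E2 lists and 5 in both G1E lists, against 16.3% and 13.4% of all elements.

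By peak number, Cxcl1 was the 1 member called, with 2 and 2 peaks in G1E-ER4+E2 against 0 and 1 in G1E, a log2 difference of 1.29 ± 0.42 (SE, limma adjusted p = 0.0368), where 11.7% of genes were called higher. This call rests on 4 peaks against 1 and was lost with a spread estimated for the cell lines alone (0.0515), its adjusted p running from 1.15e-08 to 1 over 14 alternatives. Pf4 had 9 and 6 peaks in G1E-ER4+E2 against 11 and 13 in G1E, a log2 difference of -0.90 ± 0.36 (SE, limma adjusted p = 0.0880), which did not pass, and its adjusted p ran from 6.34e-05 to 0.514 over 14 alternatives. Pf4, Ppbp and Cxcl5 were called lower with a 50 kb flank, a prior of 4 peaks, the higher scored 50% of each list or peaks found in both replicates only. On simulated data the fit made false calls far more often between the cell lines than in the other comparisons, which bears on every call between them. Unadjusted, 5 of the 6 members had p below 0.05, 3 of them lower and 2 higher.

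Other genes of the same biology moved less uniformly, and the lists were chosen with earlier results of these data known. Of 9 CXC ligands elsewhere, 6 were tested and 2 were higher in iMK and CFUMK than in CFUE and ERY: Cxcl12, which holds stem cells in the marrow, at 2.18, and Cxcl15, which lies inside the first block and shares its peaks, at 1.86. Both were lower in CFUE and ERY than MEP, at -2.30 and -1.93, and Cxcl12 was lower in MON and NEU than GMP, at -1.44 (all log2 differences in scaled peaks, by limma). Of 9 tested CC chemokine genes on chromosome 11 (11 listed), 8 were higher in the megakaryocytic than the erythroid populations, led by Ccl3 at 2.16, Ccl2 at 2.09 and Ccl4 at 1.97. Against MEP, 3 were higher in the megakaryocytic populations, led by Ccl4 at 2.41, and 1, Ccl2, was lower in the erythroid ones, at -1.34. In MEP minus CMP 2 were lower, Ccl4 at -2.11 and Ccl3 at -1.77.

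Of 10 chemokine receptor genes, 4 were higher and 1 lower in the megakaryocytic than the erythroid populations: Cxcr3 at 2.01, Cxcr2, the receptor of the neutrophil attractants, at 1.46, Ackr3 at 1.19, Ackr2 at 0.78, and Ackr1, the Duffy antigen of red cells, at -0.80. Of 12 platelet alpha granule genes, 1 was higher (Pdgfa, 0.76) and 3 lower (Mmrn1, -0.82, Fgb, -0.73, and Tgfb1, -0.52) in the same comparison. Of 5 NF-kappaB pathway genes, 1 was higher (Nfkb1, 0.42) and 2 lower (Tnfaip3, -0.69, and Nfkbia, -0.66). Over all tested genes 16.3% were called higher in this comparison. They made up 30.6% of all calls with scaling, so most calls over all genes were lower. The 6 lower calls of these lists were all lost without scaling, where Tgfb1 stood at 0.24, Mmrn1 at -0.09 and Nfkbia at 0.06, while all the higher calls of the 5 lists in this comparison were kept. Scaled list medians were 1.71 for the CC ligands, 0.40 for the receptors, -0.02 for the CXC ligands elsewhere, -0.14 for the alpha granule genes and -0.37 for the NF-kappaB genes, against -0.30 over all genes.

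In the other comparisons few of these genes were called. Cxcr3 was lower in CFUE and ERY than MEP, at -1.67, and Rela was higher, at 0.91. Ackr3 was lower in MEP than CMP, at -1.66. In MON and NEU against GMP, Ackr3 (-1.44), Ccl11 (-1.62), Pdgfa (-2.20), Mmrn1 (-1.58) and Sparc (-1.01) were lower, and Cxcr5 (0.74) and Nfkbiz (0.86) were higher with scaling and not called without it, as was Rela. In G1E-ER4+E2 against G1E, Cxcl17 (0.89), Cxcr6 (1.67), Cxcr5 (1.33) and Ackr2 (1.33) were higher, and Ccl5 (-1.85), Srgn (-1.68) and Fgb (-1.08) were lower. Of these, Cxcr6, Ccl5 and Fgb were not called without scaling. None of the 5 lists had a call in GMP minus CMP or iMK minus CFUMK.

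Genes over 1 Mb away whose log2 peaks per 100000 followed a member most closely across the 24 libraries were named as a description, since the libraries share their depth and list length. For Pf4 they were Cers6 (Pearson r = 0.927), Spin1 (0.907), Pou4f1 (0.906), Etv5 (0.894) and Lmo4 (0.894). For Cxcl2 they were Enpep (0.933), A930033H14Rik (0.914), Casp4 (0.914), Slc38a11 (0.911) and Klf12 (0.906).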

How the data were processed

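The authors trimmed reads to 30 bp, mapped them to mm10 with Bowtie 0.12.8, removed the mitochondrial chromosome and unplaced contigs, and called peaks per library with HOMER; the submitters' processing notes also name SAMtools 1.6 and bedtools. The study's pipelines let reads map to sequences present in several copies; the setting used for these lists is not stated. The deposited lists hold positions and 1 score per peak whose unit is unnamed, so scores were used only as percentiles within a list.

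Peaks overlapping each gene and 20 kb on each side were counted for 21938 protein-coding genes (GENCODE vM21) and scaled per 100000 peaks of the list, and the 17047 genes averaging 3 or more peaks were fitted on the log2 scale with a prior of 1 peak (limma 3.58.1, trend and robust, R 4.3.3; Benjamini-Hochberg, two-sided, 0.05). The fit used all 24 libraries and 12 group means and was tested on simulated data, where false calls were rare except between the cell lines. Its power was low. In MEP minus CMP, GMP minus CMP and iMK minus CFUMK, simulated 4-fold rises were found at 40%, 40% and 28%. Simulated 4-fold falls were found at 20%, 10.2% and 14%. Simulated 2-fold rises were found at 2%, 0% and 2%, and 2-fold falls at 0% in each. A missing call there does not show that a member was unchanged. Elements were merged from peaks overlapping by at least 1 bp between the 2 libraries of a population. Motif matches were searched in 200 bases around the midpoint of the highest ranked peak of an element, so longer elements were searched in part. Counting, overlaps, the exact tests (scipy 1.17.1) and figures (matplotlib 3.10.9) were done in Python 3.11.15 with pandas 2.3.3 and numpy 2.4.6.

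The members, gene lists and rules were chosen with earlier results of these data known. Described by rule were all 6 members, the elements within 500 bp of a member start, the 8 others called in most libraries, the 5 genes most like Pf4 and Cxcl2, and 2 to 4 genes of each list; other elements were chosen after their values were seen. Alternatives were flanks of 10 and 50 kb, a prior of 4 peaks, no filter, no scaling, the 50% of each list with the higher scores, lists cut to 52720 peaks, peaks found in both replicates, only the compared groups, a term for the run of library numbers, and leaving out each library. A spread of its own for the cell lines was added after seeing the data. The Cxcl5 promoter sequence was not analysed here.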

Additional observations from a re-analysis of the deposited data

How the results depend on the processing

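Over 58 results and 918 alternatives, 830 values were labelled the same, 26 weaker, 56 stronger, 2 moved and 4 reversed. The same means that a difference stayed on its side of the threshold, or that a count stayed equal or close. Reversed was counted only where a difference was called in the main or the alternative fit. A difference called in neither may have changed sign, as for Pf4 in MEP minus CMP, which ran from -0.61 to 0.29. With peaks found in both replicates only, which makes the 2 lists of a population nearly tied by construction, 1 member was called in MEP minus CMP, 2 in GMP minus CMP, 2 in iMK and CFUMK minus MEP, 1 in iMK minus CFUMK, 3 in MON and NEU minus GMP and all 6 in G1E-ER4+E2 minus G1E, 2 higher and 4 lower. With lists of equal length, 1 was called in GMP minus CMP, 1 in iMK and CFUMK minus MEP and 2 in iMK minus CFUMK, and with only the compared groups 1 in iMK and CFUMK minus MEP. In MON and NEU minus GMP, 3 were called without scaling, in the higher scored 50% of the lists and at equal length. Between the cell lines, the number of members called higher was 0 with a flank of 50 kb, a prior of 4 peaks, no filter, no scaling, the higher scored 50%, equal length, only the compared groups or a spread of their own (chosen after seeing the data), and ran from 0 to 2 over single libraries left out, 2 being without G1E replicate 2. Members called lower there numbered 4 with a flank of 50 kb, 3 with a prior of 4 peaks, 3 in the higher scored 50% and 1 without G1E-ER4+E2 replicate 1. In iMK minus CFUMK at equal length Cxcl1 stood at 1.66 and Cxcl2 at 1.59, in MON and NEU minus GMP with peaks in both replicates Cxcl5 at -0.58, and in G1E-ER4+E2 minus G1E with a 10 kb flank Cxcl1 at -0.085. Causes were not tested.

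The difference in cluster peaks per 100000 between the 6 and the 4 populations passed the threshold at a 10 kb flank (8.44, exact p = 0.0286), a 50 kb flank (13.1, 0.0190) and in the higher scored 50% (16.4, 0.0476), and ran from 7.55 to 9.40 over single libraries left out. Cluster elements numbered 52 with calls in either replicate and 51 with a 50 kb flank. The labels give library numbers, of which 842 to 848 and 850 to 856 cover the same 7 populations, and a term for these runs changed no call in the 6 comparisons among those populations. LSK, MON, NEU and the cell lines lie outside the runs. The number of called peaks limits the cell lines most, at 22.3% to 27.0% of the deepest library.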

Other observations

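The stretch between the blocks, which holds no member or flank, was called in some of the same populations. It held 8 and 10 peaks in iMK, 7 and 6 in CFUMK, 0 and 0 in CFUE, 1 and 0 in ERY, and 8 and 12 in MEP. In MON it held 0 and 0, in NEU 2 and 0, in GMP 8 and 4, in CMP 9 and 1, and in LSK 1 and 0, and it held 0 in all 4 cell line lists. CFUE and ERY, with at most 1 peak, were low here as in the cluster, whereas LSK, rich in cluster peaks, was low here as well.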
